A study of Homo sapiens with 8 samples.

Results

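The glucocorticoid receptor gene NR3C1 and 7 of its well-known target genes, TSC22D3, FKBP5, SGK1, ZBTB16, PER1, DUSP1 and KLF9, were followed through RNA sequencing of LDB1-knockdown leukaemia cells. The genes were chosen by symbol as 8 of the 64252 genes counted. The rule that picked them uses no measured value, but it was written with earlier results of these data known. The glucocorticoid receptor is a nuclear receptor that waits in the cytoplasm in a complex with heat shock proteins. When it binds a glucocorticoid hormone it moves to the nucleus, binds DNA at glucocorticoid response elements and switches target genes on or off, and in lymphoid cells this programme can end in cell death, which is why glucocorticoids belong to the treatment of lymphoblastic leukaemia. Several targets act back on the pathway: FKBP5 encodes a co-chaperone that lowers the receptor's affinity for hormone, and TSC22D3 (GILZ) and DUSP1 carry much of its anti-inflammatory action.

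The cells were 6T-CEM and J.gamma1, human T-cell acute lymphoblastic leukaemia (T-ALL) lines. Cells of the LDB1-knockdown groups (sh-LDB1) carried an shRNA that targets LDB1, and those of the control groups (sh-NC) a control shRNA. Which of the study's LDB1 shRNAs the sequenced cells carried is not given in the sources used here. Effects of that shRNA on other genes cannot be told apart from effects of lower LDB1. LDB1 is an adaptor protein that joins transcription factor complexes and the DNA they bind. Each of the 4 groups had 2 libraries, 8 in all, and the shRNAs were delivered with lentivirus and puromycin selection per the study's methods, so that each library came from a pool of infected cells of a single line. No glucocorticoid treatment is named in the labels or methods, and the cells grew in medium with foetal bovine serum, whose hormone content is not given in the sources used here. The values therefore describe target gene expression without an added hormone, and neither receptor activity nor drug response was measured in them.

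LDB1 itself fell in both lines, which checks the labels. It stood at 107 and 111 CPM (the count of a gene scaled to the size of its library, with TMM factors) in the sh-NC libraries of 6T-CEM and at 37.0 and 35.0 CPM in the sh-LDB1 libraries. Its J.gamma1 levels were 60.1 and 58.8 CPM against 33.2 and 30.7 CPM, so that 33.1% of the control level was left in 6T-CEM and 54.0% in J.gamma1. Libraries held between 26160492 and 30604977 counts. All 7 T-cell markers were present in every group, erythroid markers were at 0 counts, and the B-cell, myeloid, stromal and epithelial marker lists, apart from CD79A and COL1A1, were near 0. The summed level of the T-cell markers moved with the knockdown, from 1581 to 1658 CPM in the sh-NC libraries of 6T-CEM to 2074 to 2081 CPM in its sh-LDB1 libraries, and from 2069 to 2084 CPM to 2681 to 2698 CPM in J.gamma1, and its part in the results was not tested. The 7 markers did not all rise. At an adjusted p under 0.05, 4 rose and 1 fell in 6T-CEM (median log2 fold change 0.29). In J.gamma1 3 rose and 2 fell (median -0.05), beside 31.3% and 51.5% of all genes called in the 2 lines. The B-cell marker sum, nearly all CD79A, lay between 23.2 and 75.7 CPM, and COL1A1 lay between 2 and 35 counts in 6T-CEM and between 131 and 273 counts in J.gamma1, both higher in the sh-LDB1 libraries of each line. In a bulk library fewer cells that express a gene and less RNA of it per cell cannot be told apart. The sources do not say whether replicates were separate cultures, so the p-values measure the spread between these libraries only, which may be technical.

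All 8 genes code for proteins, and on GRCh38 NR3C1 spans chr5:143277931-143435512, TSC22D3 chrX:107713221-107777342, FKBP5 chr6:35573585-35728583, SGK1 chr6:134169248-134318112, ZBTB16 chr11:114059041-114256765, PER1 chr17:8140472-8156506, DUSP1 chr5:172768096-172771195 and KLF9 chr9:70384604-70414657. ZBTB16 lies on the plus strand and the others on the minus strand. Promoter windows of 300 bases around annotated starts (RefSeq, GRCh38.p14) were searched on both strands for 4 motifs picked after the expression values were known. The full glucocorticoid response element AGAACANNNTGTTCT was in 0 of 19 windows of these genes, which cover 7 of them, and in 1 of all 35116 windows. AGAACA, an arm of that element, was in 14.8% of all windows and in 2 of the 19, 1 of FKBP5 and 1 of SGK1. The cyclic AMP response element TGACGTCA was in 1.85% of all windows and in 1 of the 19, of DUSP1. The E-box CACGTG that clock proteins bind was in 7.26% of all windows and in 3 of the 19, of PER1, DUSP1 and FKBP5. Sequence outside the searched windows was not examined. The stretches below show the AGAACA match in the searched windows of FKBP5 and SGK1, and the cyclic AMP and clock motifs of DUSP1 and PER1. Each is read 5′ to 3′ on the gene's strand, with the motif in capitals. They stand at chr6:35728571-35728590, chr6:134177844-134177863, chr5:172771306-172771327 and chr17:8152565-8152584, all on the minus strand, and are descriptions of the sequence, with no binding measured.
FKBP5, response element arm: ctaccccAGAACAaactcct
SGK1, response element arm: tcataacAGAACAgggatag
DUSP1, cyclic AMP element: gggcgggTGACGTCAccgcccc
PER1, E-box: ccaggtcCACGTGcgcccgt

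The question was how these genes stood in each line and how they differed between sh-LDB1 and sh-NC cells. The receptor gene was not called in either line, while its targets split. TSC22D3 and SGK1 rose and ZBTB16 and PER1 fell in both lines, FKBP5 rose and DUSP1 fell in J.gamma1, and KLF9 had 0 counts in every 6T-CEM library. The 6T-CEM calls of SGK1, ZBTB16 and PER1 were each lost under some of the alternatives given below. Of the 8 genes, 7 passed the filter on low counts in 6T-CEM, of which 4 were called at an adjusted p under 0.05 (2 higher and 2 lower, beside 15.1% and 16.2% of all genes). All 8 passed in J.gamma1, of which 6 were called (3 higher and 3 lower, beside 25.0% and 26.5%). These counts stand beside a share of 31.3% of all 16059 genes called in 6T-CEM and 51.5% of all 17215 genes called in J.gamma1. A log2 fold change beyond 1 was reached by 1 gene in 6T-CEM (5.13% of all genes) and by 4 genes in J.gamma1 (13.9% of all genes). The median absolute log2 fold change of the tested members came to 0.34 in 6T-CEM and to 0.99 in J.gamma1, against 0.25 and 0.40 over all genes tested. The signed medians were -0.04 and -0.13, against 0.0027 and -0.00025 over all genes, so the list had no common direction.

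**Figure D1:**
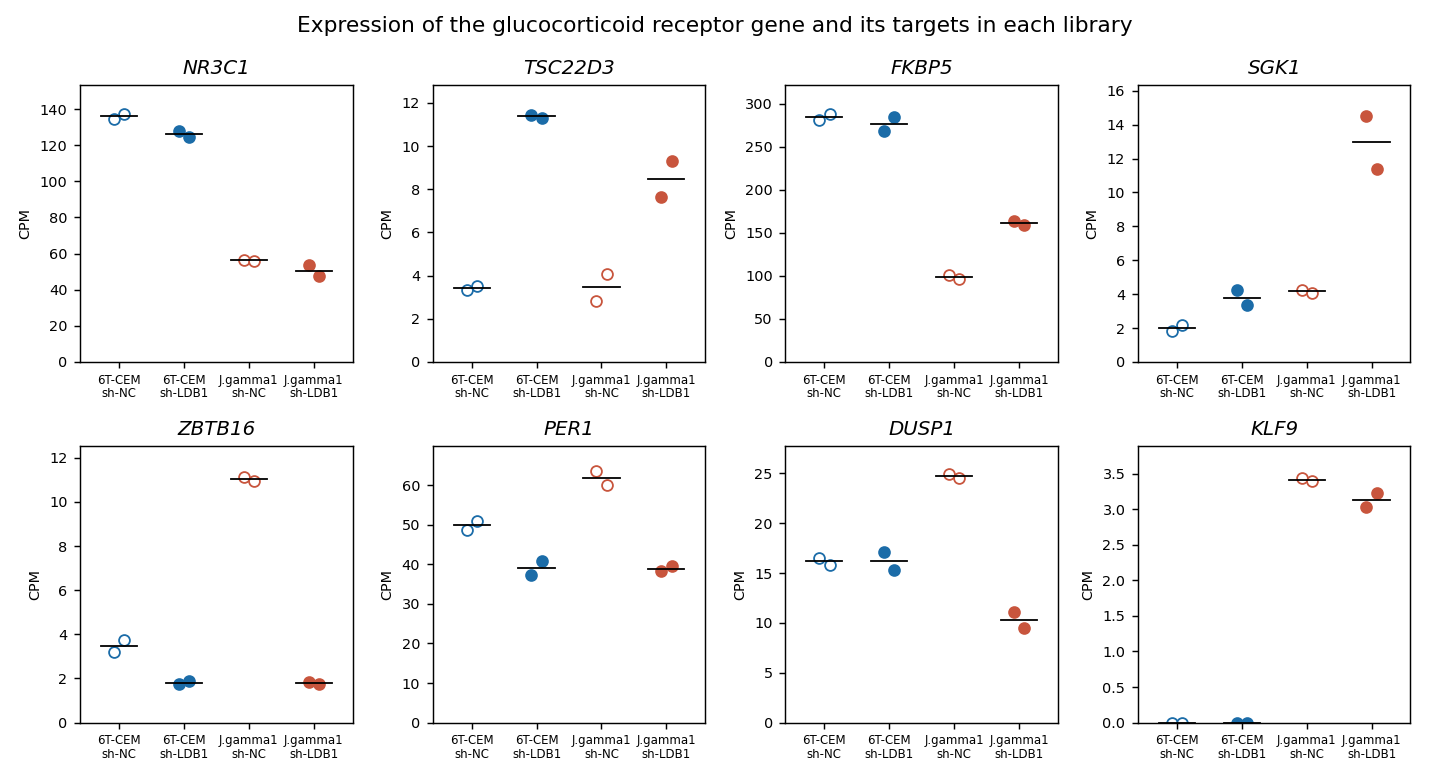
Level of each gene in every library, in CPM on a linear axis that starts at 0, with 2 points per group, open for sh-NC and filled for sh-LDB1, and a line at the group mean. TSC22D3 and SGK1 stand higher and ZBTB16 and PER1 lower in the sh-LDB1 libraries of both lines, and KLF9 is at 0 CPM in all 4 6T-CEM libraries.

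NR3C1, which encodes the receptor, did not pass the test in either line. It stood at 135 and 138 CPM in the sh-NC libraries of 6T-CEM and at 128 and 124 CPM in the sh-LDB1 libraries. Its J.gamma1 levels were 56.6 and 56.0 CPM in the sh-NC libraries and 53.5 and 47.6 CPM in the sh-LDB1 libraries. The knockdown libraries lay below the controls in both lines without overlap, and in J.gamma1 that gap was smaller than the distance between the 2 knockdown libraries. With 2 libraries a group, a lack of overlap says little by itself, here and for the genes below. The share of all genes without overlap is not given here. The log2 fold change was -0.11 ± 0.0586 (SE) in 6T-CEM (edgeR quasi-likelihood test, Benjamini-Hochberg adjusted p = 0.188) and -0.15 ± 0.0761 in J.gamma1 (adjusted p = 0.126). The J.gamma1 value turned on which knockdown library was kept: the log2 fold change was -0.23 and passed the threshold without sh-LDB1 replicate 1, and was -0.063 and did not pass without sh-LDB1 replicate 2. The difference between the lines in this change was -0.04 ± 0.0869 (adjusted p = 0.795). What did differ was the starting level, since control J.gamma1 cells held 41.4% of the NR3C1 level of control 6T-CEM cells (log2 difference -1.27 ± 0.0618, edgeR adjusted p = 3.48e-09).

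TSC22D3, a leucine zipper protein that binds and restrains inflammatory transcription factors, rose in both lines. Its sh-NC libraries stood at 3.31 and 3.52 CPM in 6T-CEM and at 2.83 and 4.09 CPM in J.gamma1. The sh-LDB1 libraries reached 11.5 and 11.3 CPM in 6T-CEM and 7.64 and 9.30 CPM in J.gamma1. Every knockdown library thus stood above every control library, although the 2 control libraries of J.gamma1 were as far apart as 90 and 129 counts. The rise was 3.33-fold in 6T-CEM (log2 fold change 1.74 ± 0.181, edgeR adjusted p = 4.43e-06) and 2.46-fold in J.gamma1 (1.30 ± 0.217, adjusted p = 0.000527). Neither the control level (log2 difference 0.02 ± 0.216, adjusted p = 0.947) nor the size of the rise (difference -0.44 ± 0.291, adjusted p = 0.316) was shown to differ between the lines.

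FKBP5, the co-chaperone that holds the receptor in its low-affinity state, rose in J.gamma1. It stood at 101 and 96.8 CPM in the J.gamma1 sh-NC libraries and at 164 and 159 CPM in the sh-LDB1 libraries, with no overlap. In 6T-CEM the sh-NC libraries at 282 and 289 CPM overlapped the sh-LDB1 libraries at 268 and 284 CPM. The change was 1.64-fold in J.gamma1 (log2 fold change 0.72 ± 0.0519, edgeR adjusted p = 1.17e-06) and -0.04 ± 0.0550 on the log2 scale in 6T-CEM (adjusted p = 0.611), and the difference between the lines passed its own test (0.76 ± 0.0691, adjusted p = 1.48e-05). Even after the rise, J.gamma1 stayed below 6T-CEM, whose control level was higher by 1.53 on the log2 scale (J.gamma1 minus 6T-CEM -1.53 ± 0.0499, adjusted p = 1.31e-10).

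SGK1, a kinase that glucocorticoids and mineralocorticoids induce and that regulates ion channels and cell survival, rose in both lines from a low level. It stood at 1.81 and 2.19 CPM in the sh-NC libraries of 6T-CEM (47 and 59 counts) and at 4.22 and 3.36 CPM in the sh-LDB1 libraries (123 and 96 counts). In J.gamma1 it went from 4.25 and 4.09 CPM to 14.5 and 11.4 CPM. No knockdown library overlapped the controls of its line. The rise was 1.90-fold in 6T-CEM (log2 fold change 0.92 ± 0.263, edgeR adjusted p = 0.0148) and 3.12-fold in J.gamma1 (1.64 ± 0.172, adjusted p = 1.81e-05), and the difference of 0.71 ± 0.306 between the lines did not pass the adjustment (edgeR adjusted p = 0.117). The 6T-CEM call is the less firm one: it was lost with DESeq2 (log2 fold change 0.93), without sh-NC replicate 1 (0.80) and without sh-LDB1 replicate 1 (0.75). In control cells SGK1 was 2.08-fold higher in J.gamma1 (edgeR adjusted p = 0.00126).

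DUSP1, a phosphatase that switches off MAP kinases and is both a glucocorticoid target and an immediate-early gene, fell in J.gamma1. Its level there was 24.9 and 24.6 CPM in the sh-NC libraries and 11.1 and 9.50 CPM in the sh-LDB1 libraries. In 6T-CEM it was 16.5 and 15.8 CPM in the sh-NC libraries and 17.1 and 15.3 CPM in the sh-LDB1 libraries, so the groups overlapped. In J.gamma1 41.8% of the control level remained (log2 fold change -1.26 ± 0.114, edgeR adjusted p = 6.37e-06), whereas the 6T-CEM value was 0.0070 ± 0.125 (adjusted p = 0.975). The lines differed in this change by -1.27 ± 0.168 (adjusted p = 0.000219). They also differed at the start, where J.gamma1 was 1.53-fold higher (adjusted p = 0.000569).

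ZBTB16 (PLZF), a zinc finger repressor that marks innate-like T cells and is strongly induced by glucocorticoids in many tissues, showed the largest change of the 8 genes in J.gamma1, and it was a fall. It stood at 11.1 and 10.9 CPM in the J.gamma1 sh-NC libraries (354 and 345 counts) and at 1.86 and 1.73 CPM in the sh-LDB1 libraries (52 and 51 counts). In 6T-CEM it went from 3.19 and 3.75 CPM (83 and 101 counts) to 1.75 and 1.89 CPM (51 and 54 counts). The 2 lines thus started 3.18-fold apart (log2 difference 1.67, edgeR adjusted p = 1.21e-05), and their knockdown libraries all lay between 1.73 and 1.89 CPM. The part of the control level that remained was 16.3% in J.gamma1 (log2 fold change -2.61 ± 0.185, edgeR adjusted p = 9.83e-07) and 52.6% in 6T-CEM (-0.93 ± 0.266, adjusted p = 0.0154), and the difference between the lines was -1.69 ± 0.300 (adjusted p = 0.00158). The 6T-CEM call was lost with DESeq2 (log2 fold change -0.93), without sh-NC replicate 2 (-0.80), without sh-LDB1 replicate 1 (-0.87) and without sh-LDB1 replicate 2 (-0.99). Of 3 annotated antisense genes that overlap its exons, 1 had 0 counts and 2 were not analysed here, and since the use of strand in counting is not stated, reads from them cannot be told from ZBTB16.

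PER1, a repressor of the circadian clock that glucocorticoids induce directly, fell in both lines. Its sh-NC libraries stood at 48.7 and 50.9 CPM in 6T-CEM and at 63.5 and 60.0 CPM in J.gamma1. The sh-LDB1 libraries stood at 37.4 and 40.9 CPM in 6T-CEM and at 38.4 and 39.4 CPM in J.gamma1. The control levels of the lines were apart by 1.24-fold (edgeR adjusted p = 0.00221), and the knockdown libraries of J.gamma1 lay within the range of those of 6T-CEM. The level that remained was 78.8% in 6T-CEM (log2 fold change -0.34 ± 0.0825, edgeR adjusted p = 0.00529) and 63.3% in J.gamma1 (-0.66 ± 0.0708, adjusted p = 2.12e-05), a difference of -0.32 ± 0.102 between the lines (adjusted p = 0.0410). Neither the 6T-CEM call nor that difference was stable. The 6T-CEM call was lost without sh-NC replicate 2 (-0.31) and without sh-LDB1 replicate 1 (-0.28), and the difference lost its call with no filter on low counts (-0.32), with DESeq2 (-0.32) and without any single library except sh-LDB1 replicate 1 of 6T-CEM, over a range of -0.37 to -0.24.

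KLF9, a zinc finger factor of the Krüppel-like family that responds to glucocorticoids and thyroid hormone, was detected in J.gamma1 and had 0 counts in all 4 libraries of 6T-CEM. In J.gamma1 it stood at 3.43 and 3.39 CPM in the sh-NC libraries (109 and 107 counts) and at 3.04 and 3.22 CPM in the sh-LDB1 libraries (85 and 95 counts). The groups did not overlap, but the change was within its error (log2 fold change -0.12 ± 0.225, edgeR adjusted p = 0.695). Set against a floor of 3 counts per library, KLF9 was at least 30.1-fold higher in control J.gamma1 than in control 6T-CEM cells. At the depth of the 6T-CEM libraries a lower level than that floor was not detectable.

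**Figure D2:**
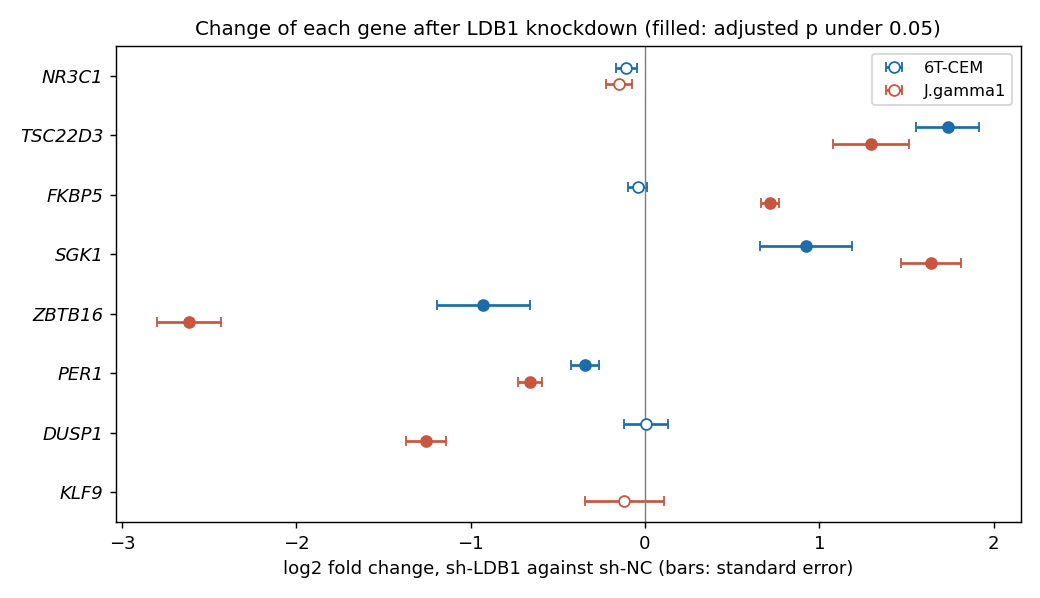
Log2 fold change of each gene, sh-LDB1 against sh-NC, in 6T-CEM (blue) and J.gamma1 (red), with bars of 1 standard error and filled points for an adjusted p under 0.05. TSC22D3 and SGK1 lie to the right of 0 and ZBTB16 and PER1 to the left in both lines, FKBP5 and DUSP1 are filled in J.gamma1 only, and KLF9 has no 6T-CEM point because it had 0 counts.

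Between the lines, 4 of the 7 genes tested in all 8 libraries changed by a different amount, FKBP5, ZBTB16, PER1 and DUSP1 (24.4% of all 18552 genes were called in this test). The control level differed for 6 of the 7, of which SGK1, ZBTB16, PER1 and DUSP1 were higher in J.gamma1 and NR3C1 and FKBP5 higher in 6T-CEM (65.7% of all genes were called, 34.6% higher and 31.1% lower in J.gamma1). The 2 contrasts share the sh-NC libraries, so one is no support for the other.

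Levels can be compared between genes only per length, here as CPM per kilobase of all annotated exons of a gene together. That length ran from 2013 bases for DUSP1 to 16557 for ZBTB16. The transcripts expressed in these cells may be shorter, which was not tested, so the order holds for this length only. In control 6T-CEM cells the order was FKBP5 (26.8 ± 0.456 CPM per kilobase, SD, n = 2), NR3C1 (14.9 ± 0.223), DUSP1 (8.04 ± 0.247), PER1 (7.11 ± 0.229), TSC22D3 (0.689 ± 0.0307), then ZBTB16 (0.210 ± 0.0236) and SGK1 (0.201 ± 0.0270), whose libraries overlapped, and KLF9 at 0. In control J.gamma1 cells DUSP1 came first (12.3 ± 0.134 CPM per kilobase), then FKBP5 (9.30 ± 0.265), PER1 (8.81 ± 0.353), NR3C1 (6.14 ± 0.0457), TSC22D3 (0.698 ± 0.179), ZBTB16 (0.667 ± 0.00916) and KLF9 (0.656 ± 0.00566), of which the libraries of TSC22D3 spanned those of the other two, and SGK1 (0.419 ± 0.0116). The order was therefore not the same in the 2 lines, with the receptor above DUSP1 and PER1 in 6T-CEM and below both in J.gamma1. After LDB1 knockdown FKBP5 led in J.gamma1 too (15.2 ± 0.331 CPM per kilobase), the libraries of PER1, NR3C1 and DUSP1 overlapped with their neighbours, and ZBTB16 came last (0.108 ± 0.00541). In the sh-LDB1 groups TSC22D3 reached 2.29 ± 0.0230 (6T-CEM) and 1.71 ± 0.236 (J.gamma1) CPM per kilobase.

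The genes whose pattern over the 8 libraries was most like that of NR3C1 were OPA1, SEC63 and B4GALT5. Their root mean square differences from it were 0.0670, 0.0777 and 0.0824 on the centred log2 scale, against a median of 0.676 over 11958 genes. Since the nearest genes were picked, distances below the median were fixed by the choice. For TSC22D3 the nearest genes were IGFBP6, PLEC and EEIG1, at 0.180, 0.186 and 0.198 against a median of 0.739. TSC22D3 thus had less close matches than NR3C1, but it also had fewer counts a library, 86 to 334 against 1403 to 3723. The part of counting error in these distances was not tested. IGFBP6, a binding protein of insulin-like growth factors, changed by 1.24 and 1.40 on the log2 scale in 6T-CEM and J.gamma1, PLEC by 1.36 and 1.21, and EEIG1 by 1.10 and 1.04. That these changes resemble those of TSC22D3 follows from the choice, which used the same 8 libraries.

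The receptor is folded and held ready for hormone by HSP70 and HSP90 with their co-chaperones, and the calls among these genes are given for each line. Of 13 chaperones and co-chaperones tested, 3 rose, 4 fell and 6 were not called in 6T-CEM, and 9 rose, 2 fell and 2 were not called in J.gamma1, beside 31.3% and 51.5% of all genes called. The list itself was not tested for a difference between the lines. The median log2 fold change came to -0.04 in 6T-CEM and to 0.54 in J.gamma1, beside medians near 0 over all genes. HSPA8, the constitutive HSP70, had 46263 and 48686 sh-NC counts against 66967 and 67898 sh-LDB1 counts in 6T-CEM, and 22473 and 23082 against 44114 and 45805 counts in J.gamma1. It rose by log2 fold changes of 0.38 ± 0.0521 and 1.13 ± 0.0408 (edgeR adjusted p = 5.53e-05 and 8.90e-09). PTGES3 (p23), which stabilises the hormone-binding complex, rose by 0.38 ± 0.0531 and 0.81 ± 0.0449 (edgeR adjusted p = 7.74e-05 and 1.58e-07). DNAJB1, an HSP40 partner of HSP70, fell by log2 fold changes of -0.30 ± 0.0639 and -0.80 ± 0.0635, and BAG1, which releases nucleotide from HSP70, by -0.60 ± 0.0626 and -0.39 ± 0.0730 (largest edgeR adjusted p of the 4 values 0.00226). PPID, a cyclophilin in the receptor complex, rose by 0.23 and 0.54, and PPP5C, a phosphatase in it, fell by 0.30 on the log2 scale in 6T-CEM; both genes were added after their values were seen.

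FKBP4, which competes with FKBP5 for the receptor complex and helps its transport to the nucleus, was called in opposite directions in the 2 lines. In 6T-CEM it went from 7546 and 7768 counts with sh-NC to 5835 and 5809 with sh-LDB1 (log2 fold change -0.52 ± 0.0528, edgeR adjusted p = 3.72e-06). In J.gamma1 it went from 6019 and 6086 to 6690 and 6904 counts (0.31 ± 0.0455, adjusted p = 0.000191). The difference between the lines was 0.83 ± 0.0601 (adjusted p = 2.66e-06). The HSP90 genes, added after their values were seen, rose in J.gamma1 by 0.74 for HSP90AA1 and 1.28 for HSP90AB1 on the log2 scale, with values of 0.01 and -0.06 in 6T-CEM that were not called, and the differences between the lines of 0.73 ± 0.0566 and 1.33 ± 0.0581 passed their test (edgeR adjusted p = 4.57e-06 and 8.80e-08).

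**Figure D3:**
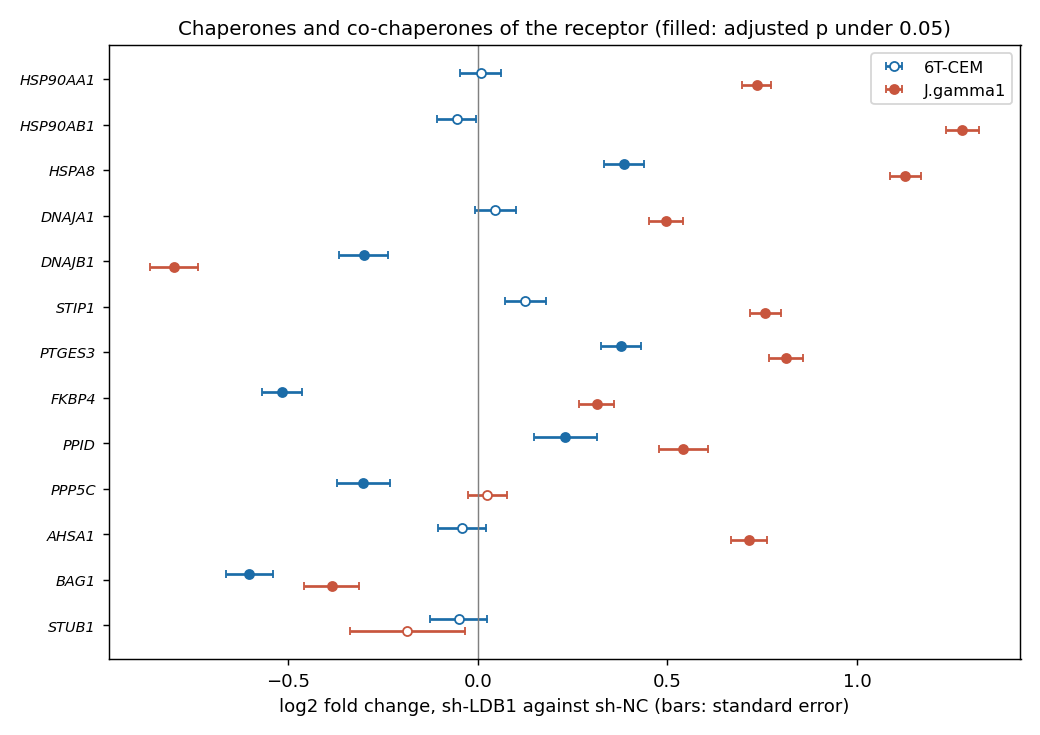
Log2 fold change, sh-LDB1 against sh-NC, of 13 chaperones and co-chaperones of the receptor in 6T-CEM (blue) and J.gamma1 (red), with bars of 1 standard error and filled points for an adjusted p under 0.05. In J.gamma1 9 genes are filled to the right of 0, HSP90AB1 farthest at 1.28, and FKBP4 is filled on opposite sides in the 2 lines.

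Of 12 coregulators that the receptor recruits at DNA, 4 rose and 1 fell in 6T-CEM, and 3 rose and 3 fell in J.gamma1, beside the 31.3% and 51.5% called over all genes. CREBBP, an acetyltransferase and coactivator, rose in both lines by 0.44 ± 0.0634 and 0.35 ± 0.0622 on the log2 scale (edgeR adjusted p = 9.59e-05 and 0.000775). HEXIM1, which can bind the receptor and holds back transcription elongation, fell by log2 fold changes of -0.33 ± 0.0789 and -0.46 ± 0.0553 (edgeR adjusted p = 0.00514 and 4.75e-05). Other calls, named after their values were seen, were NCOA2 (0.28) and EP300 (0.35) in 6T-CEM and SMARCA4 (0.31), NCOA3 (-0.29) and NRIP1 (-0.57) in J.gamma1. The count of 5 called in 6T-CEM was 3 without sh-NC replicate 1.

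Among 19 other genes known to be induced by glucocorticoids, calls went both ways in each line. Of 16 tested in 6T-CEM 4 rose and 5 fell, and of 17 tested in J.gamma1 6 rose and 6 fell, beside 31.3% and 51.5% of all genes called, with median log2 fold changes of 0.0048 and -0.10. SOCS1, an inhibitor of cytokine signalling, had 35 and 37 sh-NC counts against 256 and 274 sh-LDB1 counts in 6T-CEM, and 19 and 18 against 33 and 45 counts in J.gamma1 (log2 fold changes 2.75 ± 0.219 and 1.21 ± 0.406, edgeR adjusted p = 2.95e-07 and 0.0280). SESN1, a stress-induced inhibitor of growth signalling, rose by 0.43 ± 0.0893 and 0.40 ± 0.0791 (edgeR adjusted p = 0.00211 and 0.00148). TNFAIP3 (A20), which damps NF-κB signalling, fell to log2 fold changes of -1.07 ± 0.0647 and -1.01 ± 0.0633 (edgeR adjusted p = 2.23e-08 and 4.19e-07). The difference between the lines in the fall of TNFAIP3 was 0.06 ± 0.0795 (adjusted p = 0.663).

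GLUL, glutamine synthetase, had levels far apart in the 2 lines and fell in both. It had 131 and 160 sh-NC counts against 46 and 80 sh-LDB1 counts in 6T-CEM, and 14469 and 15025 against 4946 and 5139 counts in J.gamma1. The log2 fold changes were -1.32 ± 0.277 and -1.40 ± 0.0456 (edgeR adjusted p = 0.00236 and 4.27e-09). BCL2L11 (BIM), the pro-apoptotic gene through which glucocorticoids kill lymphoid cells, was not called in either line. Its log2 fold change was -0.01 ± 0.0891 from 833 and 919 to 983 and 908 counts in 6T-CEM (edgeR adjusted p = 0.940) and -0.10 ± 0.0700 from 1568 and 1537 to 1251 and 1378 counts in J.gamma1 (adjusted p = 0.284). The metallothionein gene MT2A, named after its values were seen, was called in opposite directions, at -0.64 ± 0.184 in 6T-CEM and 0.54 ± 0.133 in J.gamma1, and the difference of 1.17 ± 0.220 passed its test (edgeR adjusted p = 0.00221). TXNIP (0.97), IL7R (0.34), ANXA1 (-0.97) and CXCR4 (-0.22), also named after their values were seen, complete the calls in 6T-CEM. Of the list, 6 genes with a mean normalized count of at least 50 were called in the same direction in both lines. These last calls are therefore not all particular to 6T-CEM. The share of all genes called alike in both lines is not given here, so the 6 cannot be set against it. The further calls in J.gamma1, where the list ranged from -1.72 to 1.75, are not named here.

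**Figure D4:**
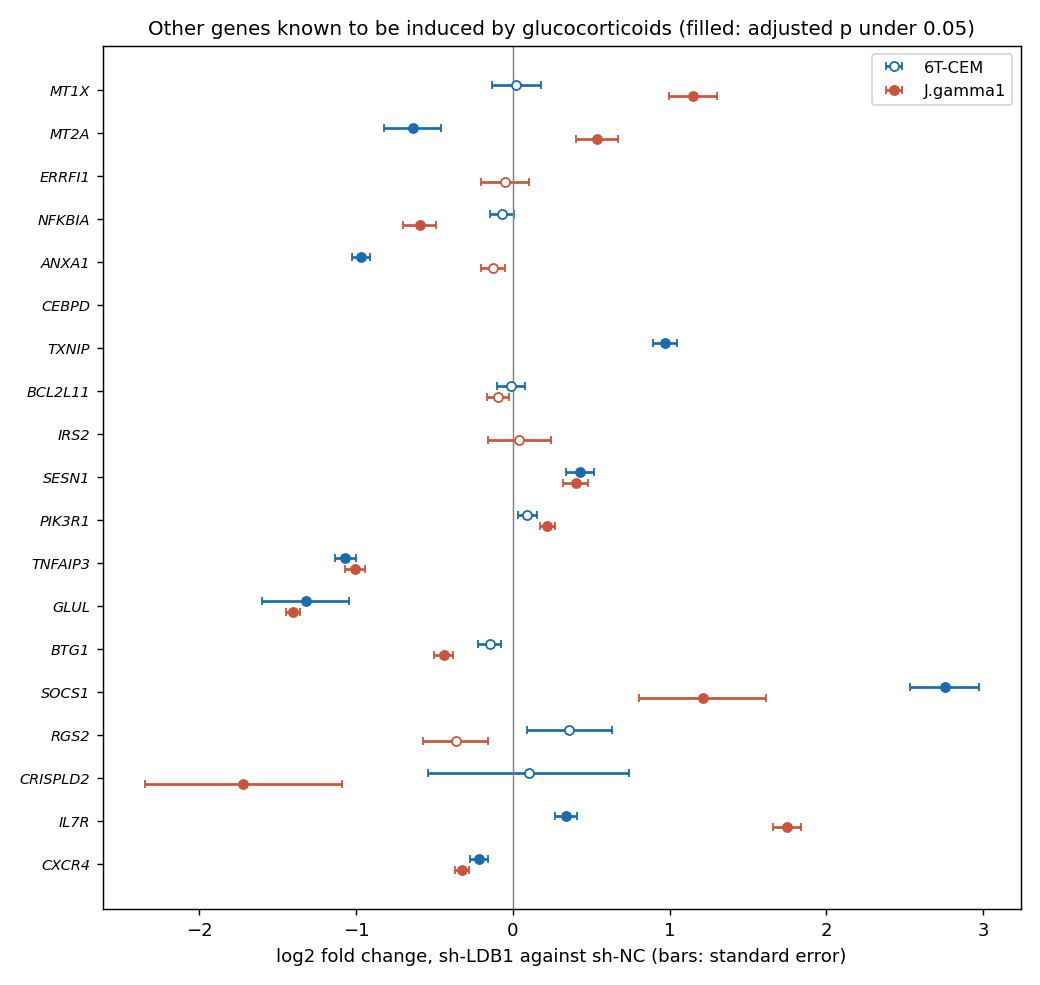
Log2 fold change, sh-LDB1 against sh-NC, of 19 other genes known to be induced by glucocorticoids, in 6T-CEM (blue) and J.gamma1 (red), with bars of 1 standard error, filled points for an adjusted p under 0.05 and no point where a gene was not tested. Filled points lie on both sides of 0 in each line, and SOCS1 in 6T-CEM is farthest to the right at 2.75.

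Few genes for other steroid receptors or for the handling of steroids were expressed. Of 9, 3 were tested in 6T-CEM, where 1 rose, and 4 in J.gamma1, where 2 rose and 1 fell, beside 31.3% and 51.5% of all genes. NR3C2, the mineralocorticoid receptor, which also binds cortisol, had 0 and 2 counts in the sh-NC and 2 and 8 in the sh-LDB1 libraries of 6T-CEM. In J.gamma1 it had 125 and 141 counts against 95 and 108, a log2 fold change of -0.25 ± 0.213 (edgeR adjusted p = 0.366). J.gamma1 thus carried transcripts of both corticosteroid receptors. The genes called, named after their values were seen, were ABCB1, a drug exporter that also carries steroids, in 6T-CEM (0.43), and in J.gamma1 HSD11B2, which inactivates cortisol, from 19 and 31 to 76 and 65 counts (1.64), SRD5A1 (0.34) and H6PD (-0.61).

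Among 22 relatives of the 8 genes, 8 rose and 1 fell of 17 tested in 6T-CEM, and 9 rose and 5 fell of 21 tested in J.gamma1, beside 31.3% and 51.5% of all genes called. KLF10, a Krüppel-like factor induced by TGF-beta, rose by 1.31 ± 0.131 and 1.52 ± 0.0769 on the log2 scale (edgeR adjusted p = 3.17e-06 and 8.01e-08). KLF13 rose by 0.67 ± 0.0705 and 1.26 ± 0.0517 (edgeR adjusted p = 4.64e-06 and 1.93e-08). ZBTB7B (ThPOK), which directs T cells to the CD4 lineage, went from 370 and 369 to 1204 and 1217 counts in 6T-CEM and from 140 and 176 to 317 and 349 counts in J.gamma1 (log2 fold changes 1.59 ± 0.0963 and 1.22 ± 0.167, edgeR adjusted p = 2.23e-08 and 0.000124), opposite in sign to ZBTB16. DUSP10, a phosphatase for p38 and JNK, fell to log2 fold changes of -1.08 ± 0.136 and -0.79 ± 0.125 (edgeR adjusted p = 2.85e-05 and 0.000363), so a DUSP gene fell in 6T-CEM although DUSP1 was not called there. The further calls in J.gamma1, named after their values were seen, were rises of TSC22D1 (0.52), TSC22D2 (0.43), TSC22D4 (0.30), SGK3 (0.46), DUSP2 (1.00) and ZBTB7A (0.56) and falls of DUSP6 (-1.45), DUSP16 (-0.53), KLF2 (-1.19) and KLF11 (-1.32). Of the relatives, 7 with a mean normalized count of at least 50 were called in the same direction in both lines, so some of these rises were called in 6T-CEM too. Here as well the share of all genes called alike is not given. The further rises in 6T-CEM are not named here.

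Beside PER1, 14 other clock genes were followed, of which 4 rose and 2 fell of 11 tested in 6T-CEM, and 4 rose and 3 fell of 13 tested in J.gamma1, beside 31.3% and 51.5% of all genes called. NR1D2, a clock repressor, fell to log2 fold changes of -0.61 ± 0.112 and -0.92 ± 0.0958 (edgeR adjusted p = 0.000747 and 1.75e-05). DBP, a clock output factor, rose by 0.40 ± 0.0947 and 0.92 ± 0.0977 (edgeR adjusted p = 0.00510 and 2.00e-05), and its relative TEF fell to -0.40 ± 0.110 and -0.52 ± 0.146 (edgeR adjusted p = 0.0123 and 0.0112). BMAL1, the activator that PER1 opposes and a gene added after its values were seen, had 0 counts in all 6T-CEM libraries and was at least 442-fold higher in control J.gamma1 cells, where it rose by 0.93 on the log2 scale. The further calls, also named after their values were seen, were PER2 (0.33), CLOCK (0.25) and BHLHE40 (0.62) in 6T-CEM and NR1D1 (0.78), HLF (0.75) and CRY1 (-0.39) in J.gamma1. The 6 calls in 6T-CEM were not stable, with 2 left without sh-NC replicate 1 and 3 without each of the other libraries.

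Of 13 immediate-early genes, the class that DUSP1 also belongs to, 5 rose and 2 fell of 10 tested in 6T-CEM, and 2 rose and 3 fell of 11 tested in J.gamma1, where the shares called over all genes were 31.3% and 51.5%. BTG2, an antiproliferative gene, went from 411 and 485 to 1658 and 1683 counts in 6T-CEM and from 877 and 773 to 3440 and 3672 counts in J.gamma1 (log2 fold changes 1.78 ± 0.0926 and 2.25 ± 0.0717, edgeR adjusted p = 5.59e-09 and 3.95e-09). JUN, a subunit of AP-1, rose by 1.13 ± 0.138 and 0.26 ± 0.0712 (edgeR adjusted p = 2.22e-05 and 0.00984). ATF3, a stress-induced repressor, fell to -0.69 ± 0.154 and -0.71 ± 0.113 (edgeR adjusted p = 0.00320 and 0.000347). In J.gamma1, where DUSP1 fell, the other calls were falls of FOSB (-1.45) and EGR1 (-1.28), and the further calls in 6T-CEM were NR4A1 (1.47), NR4A2 (1.69), ZFP36 (0.46) and JUNB (-0.63), all named after their values were seen.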

How the data were processed

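RNA of 2 cell lines was sequenced in 4 groups of 2 libraries. The authors aligned reads to hg38 with HISAT2 2.2.0, quantified genes with StringTie and deposited 2 tables, 1 per line, of whole-number counts per gene without normalization. The annotation release, the use of strand, the treatment of shared reads and the step from coverage to counts are not given in the sources used here. The counts were tested with edgeR 4.0.16 (R 4.3.3), using the robust quasi-likelihood test, TMM and filterByExpr, with p-values adjusted over every tested gene by the Benjamini-Hochberg method, in each line by itself and, for differences between lines, in 1 fit of 8 libraries. The threshold for a call was an adjusted p of 0.05. Standard errors came from the log2 fold change and its F statistic. The spread between replicates, which may be technical, came to a coefficient of variation of 9.68% (6T-CEM) and 9.16% (J.gamma1) in edgeR. CPM were TMM-scaled over 8 libraries, and exon lengths, positions and symbols came from GENCODE on GRCh38, in which 56105 of 64252 genes had a symbol. A fold against a group at 0 used a floor of 3 counts per library, which covers counting error only.

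The 8 genes, the pathway lists and the tests were chosen with earlier results of these data known. Genes named from a list were those called alike in both lines whose mean normalized count reached 50, at most 4 a list by the smaller change, plus FKBP4, NR3C2 and BCL2L11. Genes of like pattern were the nearest 3 among those with at least 1 CPM in every library. The fits were tested on simulated data. Alternatives were other size factors, filters and thresholds, DESeq2 1.42.0, the replicate number as a block, 1 fit of all libraries and leaving out each library. A gene of the coregulator list is counted but not reported here by name.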

Additional observations from a re-analysis of the deposited data

Results flagged for a closer look

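Of the 8 genes, 7 could be tested for a difference between the lines, and the change of 4 of them differed in edgeR's quasi-likelihood fit to all 8 libraries, where 24.4% of all genes were called. The difference of log2 fold changes, J.gamma1 minus 6T-CEM, was 0.76 for FKBP5 (adjusted p = 1.48e-05), -1.69 for ZBTB16 (adjusted p = 0.00158), -1.27 for DUSP1 (adjusted p = 0.000219) and -0.32 for PER1 (adjusted p = 0.0410). The PER1 difference lost its call with DESeq2, with no filter on low counts and without any single library except sh-LDB1 replicate 1 of 6T-CEM. The share of LDB1 that remained also differed between the lines, by 0.70 on the same scale (adjusted p = 0.000237), with the weaker knockdown in J.gamma1, and its part in these differences was not tested. Groups of 2 libraries are too small to test for a library that stands apart.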

How the results depend on the processing

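No result for the 8 genes turned its direction under any alternative where it was called, and 313 values for single genes kept their side of the threshold, while 18 lost their call and 1 gained it. The number of the 8 genes called in 6T-CEM, 4, was 2 with DESeq2, 1 with a log2 fold change beyond 1 as a further threshold, and 1 to 3 when 1 library was left out: 2 without sh-NC replicate 2 and 1, TSC22D3, without sh-LDB1 replicate 1. In J.gamma1 the 6 calls became 6 to 7 when 1 library was left out. Of the lists in 6T-CEM, the 6 clock genes called were 3 without a filter on low counts and 2 to 3 with 1 library left out, the 5 coregulators were 3 to 5 with 1 library left out, and the 1 steroid-handling gene, ABCB1, was 0 in 1 fit to all 8 libraries. The cause was not tested. A group left with 1 library was assumed to vary like the others. Whether libraries with the same replicate number share more than that number is not given in the sources used here. Their deviations correlated at -0.0229 in 6T-CEM and 0.000185 in J.gamma1, which cannot decide it with 2 libraries a group. With the replicate number as a block 4 and 6 of the 8 genes were called, as before. Depth limits SGK1, ZBTB16 and TSC22D3, which had 47 to 406 counts a library, and KLF9, which had 85 to 109 in J.gamma1 and 0 in 6T-CEM.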
